A study of Mus musculus with 139 samples.

Results

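The lungs described here came from mice that received only dispersion medium, the vehicle of a study of multi-walled carbon nanotubes (MWCNT) and crocidolite asbestos, and were taken 1, 6 or 12 months later. They were chosen by the source label, which names dispersion medium (DM) and the month, and there were 8 mice at each time, 24 arrays or 17.3% of the series, in 3 of its 18 groups. The question was which part of the change with time fell early, between 1 and 6 months, and which part fell late, between 6 and 12 months, in lungs without fibres. The mice were males, written C57BL/J6 in the labels, bought at 7 weeks of age, acclimated for at least 5 days and housed 1 to a cage. Under isoflurane they aspirated 50 µL of DM, a phosphate-buffered saline free of calcium and magnesium that contained d-glucose, mouse serum albumin and the surfactant lipid DPPC. Total RNA of lung tissue was hybridised to Affymetrix arrays. For comparison, lungs of mice given 1 or 10 µg of MWCNT in the same medium were taken at the same times (6 to 8 mice a group). Within the DM groups time after aspiration, age of the mouse and occasion of collection move together and cannot be told apart.

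The adult lung is lined by airway epithelium, whose ciliated cells move mucus, and by alveolar epithelium, made of thin type 1 cells for gas exchange and of type 2 cells that secrete surfactant. A motile cilium is built around an axoneme, a ring of microtubules on which dynein motors slide, and its genes are switched on together under the factors FOXJ1 and RFX. The alveoli are wrapped in capillaries whose endothelium carries receptors for apelin and endothelin, and the matrix laid down during growth is replaced slowly in adult life.

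Levels are given on the log2 scale of the deposited table, where a difference of 1 is a doubling, and a gene is said to have risen or fallen when its adjusted p in limma was under 0.05 over 22180 genes. The lung markers Sftpc (type 2 cells), Scgb1a1 (club cells) and Pecam1 (endothelium) were high in all DM mice, with lowest values of 12.40, 12.46 and 10.22. Markers of neighbouring tissue were uneven. Acta1, the actin of skeletal muscle, was above 6 in 4 DM mice, namely replicates 1, 2 and 8 at 1 month and replicate 2 at 12 months, and at 5.02 or below in the other DM mice. Replicate 2 at 1 month was also high in Krt4 and Krt13, keratins of squamous epithelium (12.11 and 10.72, against medians of 3.30 and 3.33 in its group). Replicate 2 at 12 months had the lowest median correlation with the other arrays of all DM mice (0.961); the 1-month and 6-month mice lay between 0.969 and 0.985. The word replacement stands in the titles of some arrays without an explanation: 4 of 8 at 1 month, 1 of 8 at 6 months and 3 of 8 at 12 months. In whole tissue, fewer cells of a type and less RNA in each cell cannot be told apart.

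Between 1 and 6 months 26 genes rose and 4 fell, 30 of 22180 (0.135%). Those that rose included 3 dynein heavy chains, 2 Cfap genes and Cdhr3, all genes of ciliated cells, by 0.61 to 0.72 on the log2 scale. The genes that fell were Veph1, Prdm8, Tuba8 and Lamp3. The 26 were 0.117% and the 4 were 0.018% of all genes. At an unadjusted p under 0.05 there were 2066 genes or 9.31%, and 52% of all differences were above 0. In 48 genes (0.216%) all 6-month mice were above all 1-month mice and in 11 (0.0496%) below.

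Cdhr3, a cadherin of ciliated airway cells, lay at 8.24 to 8.92 (median 8.60) at 1 month, at 8.91 to 9.55 (median 9.28) at 6 months and at 8.87 to 9.38 (median 9.19) at 12 months. It rose by 0.67 ± 0.13 (SE, n = 8 and 8; limma adjusted p = 0.00534); at 6 months 7 of the 8 stood higher than the whole 1-month group. Cfap74, a protein of the axoneme, lay at 5.65 to 6.07 (median 5.84), then at 6.13 to 6.77 (median 6.63) and at 5.82 to 6.57 (median 6.43). It rose by 0.72 ± 0.14 (adjusted p = 0.0102), with no overlap between 1 and 6 months. Dnah2, a heavy chain of the inner dynein arms, lay at 4.69 to 5.51 (median 5.17), at 5.53 to 6.08 (median 5.76) and at 4.95 to 5.82 (median 5.60). Its rise was 0.64 ± 0.15 (adjusted p = 0.0391), again without overlap. The inner arm dyneins Dnah1 and Dnah6 rose by 0.61 and 0.62, the axonemal genes Cfap65 and Wdr66 by 0.62 and 0.61, and Tmem212 by 0.70, and Nek5, a kinase of the NIMA family, by 0.57. Dnah1, Dnah6, Cfap65, Wdr66 and Nek5, with other genes given here beyond the largest 10, were singled out after their values were seen. None of these genes moved past the test between 6 and 12 months, where their differences ran from -0.27 for Cfap74 to 0.17 for Nek5.

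**Figure D1:**
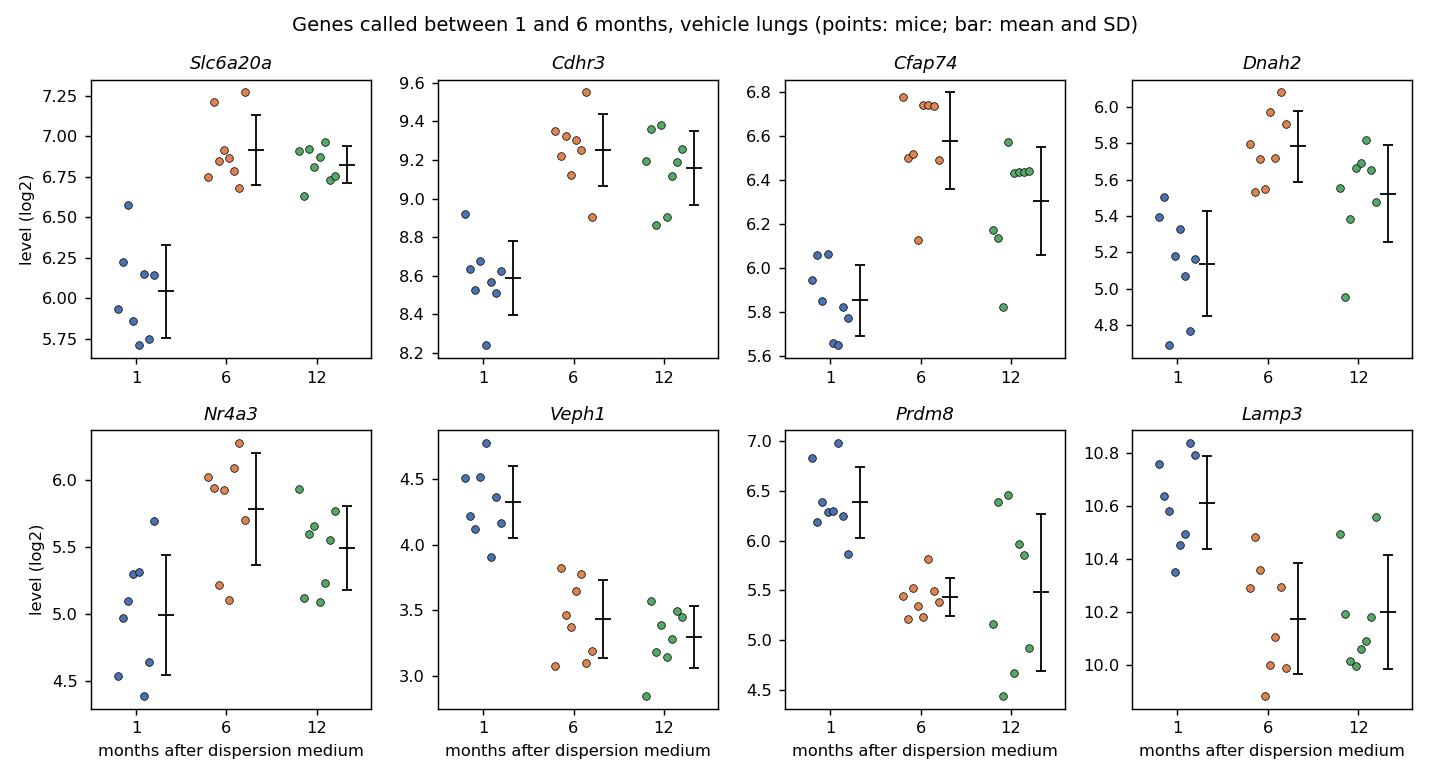
Levels (log2, vertical axis) of 8 genes in each vehicle mouse at 1, 6 and 12 months (horizontal axis), with the mean and SD beside the points, n = 8 mice a time. Veph1 at 6 months lay below every 1-month mouse and Cfap74 and Slc6a20a above every 1-month mouse. At 12 months Cfap74 had 1 mouse, at 5.82, within the 1-month range.

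The wider sets showed how far this went. Of 14 measured genes of the ciliated cells list, 13 had a difference above 0 between 1 and 6 months, with a median of 0.33 against 0.01 over all genes, and 0 passed the test over all genes. At an unadjusted p under 0.05, 7 were higher and 1 lower, against 5.76% and 3.56% of all genes. Hydin, a protein of the central pair of the axoneme, lay at 6.47 to 7.10 (median 6.87) at 1 month and at 7.17 to 7.61 (median 7.37) at 6 months, a difference of 0.56 ± 0.14 just outside the threshold (adjusted p = 0.0517). Foxj1, the master factor of motile cilia, differed by 0.36 ± 0.15 (adjusted p = 0.409). Tppp3, a microtubule protein of the same list, went the other way with -0.37 ± 0.13 (adjusted p = 0.276). Of 11 dynein heavy chain genes, a family picked after the values were seen, 10 had a difference above 0, with a median of 0.40, and 3 rose; over all genes 52% were above 0 and 0.117% rose. In the Cfap family, picked likewise, 27 of 29 were above 0, with a median of 0.40, and 2 rose. Between 6 and 12 months the medians of the ciliated cells list, the dyneins and the Cfap genes were 0.15, -0.09 and 0.11, with 0 genes past the test in each. Over the whole span from 1 to 12 months 7 of the 14 ciliated cells genes rose, against 0.681% of all genes, among them Hydin by 0.56, Tekt1, a tektin of the axoneme, by 0.46 and Rsph1, a radial spoke protein, by 0.87 ± 0.15 (adjusted p = 0.000237).

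RFX factors bind X-boxes, and the letters GTTGCC form one arm of that site. They were searched on both strands (GTTGCC or GGCAAC) in the 250 bases before the start of each gene, from RefSeq on GRCm38.p6. Of the 26 genes that rose, 21 had an entry and 4 of those held the letters (19%), namely Cdhr3, Cfap74, Nek5 and 4930502A04Rik, against 11.8% of all 27025 genes with an entry. Of the 4 genes that fell early 1 held them (25%, Tuba8), of 5 that rose late 1 (20%, Ccdc43) and of 32 that fell late 4 (12.5%), so the share among the genes that rose early does not set them apart. Of 12 ciliated cells genes with an entry 5 held them (41.7%), and of 35 dynein and Cfap genes 10 held them (28.6%). Dnah1, Dnah2, Dnah6, Wdr66 and Tmem212 did not hold these letters in this window, and Cfap65 was not matched. A match is a description and not a binding site. The windows of the 3 genes with full names are printed because they joined a rise to the letters. They lie at chr12:33092876-33093125 (minus strand), chr4:155408940-155409189 (plus strand) and chr8:22125068-22125317 (minus strand), with the searched letters in capitals.
Cdhr3: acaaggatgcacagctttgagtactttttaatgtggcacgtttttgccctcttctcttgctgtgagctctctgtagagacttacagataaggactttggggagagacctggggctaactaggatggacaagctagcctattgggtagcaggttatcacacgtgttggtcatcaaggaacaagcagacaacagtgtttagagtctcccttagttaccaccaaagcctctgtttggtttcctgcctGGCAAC
Cfap74: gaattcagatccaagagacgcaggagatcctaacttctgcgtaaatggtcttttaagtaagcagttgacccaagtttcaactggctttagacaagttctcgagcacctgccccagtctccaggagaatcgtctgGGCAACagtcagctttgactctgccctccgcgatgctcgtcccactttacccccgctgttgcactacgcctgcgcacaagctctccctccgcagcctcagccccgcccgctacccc
Nek5: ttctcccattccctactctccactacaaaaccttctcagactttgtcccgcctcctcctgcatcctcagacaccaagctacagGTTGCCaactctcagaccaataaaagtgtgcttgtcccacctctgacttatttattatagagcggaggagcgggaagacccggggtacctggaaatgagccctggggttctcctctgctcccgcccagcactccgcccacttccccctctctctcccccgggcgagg

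Outside the cilium, Slc6a20a, a transporter of proline and other imino acids, showed the largest rise among the genes named by rule. It lay at 5.71 to 6.58 (median 6.04) at 1 month, at 6.68 to 7.27 (median 6.86) at 6 months and at 6.63 to 6.96 (median 6.84) at 12 months. The rise was 0.87 ± 0.16 or 1.83-fold (adjusted p = 0.00285), with the 1-month and 6-month mice apart, and the late difference was -0.09. Nr4a3, an orphan nuclear receptor of the immediate early type, lay at 4.39 to 5.70 (median 5.03) and then at 5.11 to 6.27 (median 5.93), with overlap, and rose by 0.79 ± 0.17 (adjusted p = 0.0248). Frmpd2, a scaffold protein, rose by 0.74, and Cpeb1, which binds the polyadenylation element of mRNAs, by 0.65. Unc79, a subunit of the NALCN sodium leak channel, rose by 0.63 and Tbata by 0.63. In the 16 fits that left out a mouse in turn Tbata kept its call in 2, Unc79 in 4, Frmpd2 in 6, Nr4a3 in 9 and Cpeb1 in 13. Nr4a3 also lost its call with only DM arrays. Unc79 had a further 0.33 ± 0.15 between 6 and 12 months that did not pass the test (adjusted p = 0.334) and rose by 0.97 over the whole span. The predicted gene Gm16381 had the largest difference of the 30, 1.22 ± 0.28 (adjusted p = 0.0362), and was named after its value was seen.

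Veph1, a protein with a PH domain, had the lowest adjusted p of the early step. It lay at 3.90 to 4.77 (median 4.29) at 1 month, at 3.08 to 3.82 (median 3.42) at 6 months and at 2.85 to 3.57 (median 3.33) at 12 months, so the 1-month mice stood above all later ones. It fell by 0.89 ± 0.14 on the log2 scale (adjusted p = 3.93e-05), with -0.13 ± 0.14 in the late step. Its 6-month and 12-month levels lay below the array medians (4.01 to 4.34), and it was not tested in the setting of genes above the median level. Prdm8, a PR domain regulator of transcription, lay at 5.87 to 6.98 (median 6.30) and then at 5.22 to 5.82 (median 5.41), without overlap, and fell by 0.96 ± 0.22 (adjusted p = 0.0362). At 12 months Prdm8 spread from 4.44 to 6.46. Its early call was kept in 5 of the 16 fits that left out a mouse in turn. It was lost with only DM arrays, with the word replacement as a covariate and in arrays without that word. Tuba8, an alpha-tubulin, fell by 0.74 ± 0.18 (adjusted p = 0.0468), and the call was lost on leaving out any of 13 of the 16 mice in turn. Lamp3, a membrane protein of the lamellar bodies of type 2 cells, lay at 10.35 to 10.84 (median 10.61) and then at 9.88 to 10.48 (median 10.20), with 6 of 8 mice below every 1-month mouse. It fell by 0.44 ± 0.10 (adjusted p = 0.0362) and also lost its call on leaving out any of 13 of the 16 mice in turn. In the type 2 epithelium list 12 of 14 differences were below 0 (median -0.16) and Lamp3 was the single gene past the test.

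The alveolar type 1 epithelium list was lower at 6 months in its median, and its levels were uneven between mice. All 14 members had a difference below 0 between 1 and 6 months (median -0.53), 0 passed the test and 9 were lower at an unadjusted p under 0.05, against 3.56% of all genes. Ager, the receptor for advanced glycation end products and the most used marker of these cells, lay at 11.40 to 11.61 (median 11.48) at 1 month, at 10.00 to 11.63 (median 10.86) at 6 months and at 9.99 to 11.69 (median 11.47) at 12 months. Its early difference was -0.57 ± 0.22 (adjusted p = 0.37). The 1-month mice lay close together, with an SD of 0.07, while the SD was 0.55 at 6 months and 0.56 at 12 months. The same 5 mice at 6 months, replicates 1, 5, 6, 7 and 8, were the lowest of their group in 13 of the 14 members, all but Emp2. At 12 months replicate 4 was below the lowest 1-month mouse in 14 of 14 members and replicate 8 in 11 of 14. Rtkn2, a gene typical of type 1 cells, ran from 9.70 to 9.99 at 1 month and from 7.97 to 10.31 at 6 months, and Aqp5, a water channel, from 8.56 to 9.31 and from 8.05 to 9.16. Over all mice of the series, fibres included, Ager was below 11 in 2 of 45 at 1 month, 17 of 48 at 6 months and 10 of 45 at 12 months.

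**Figure D2:**
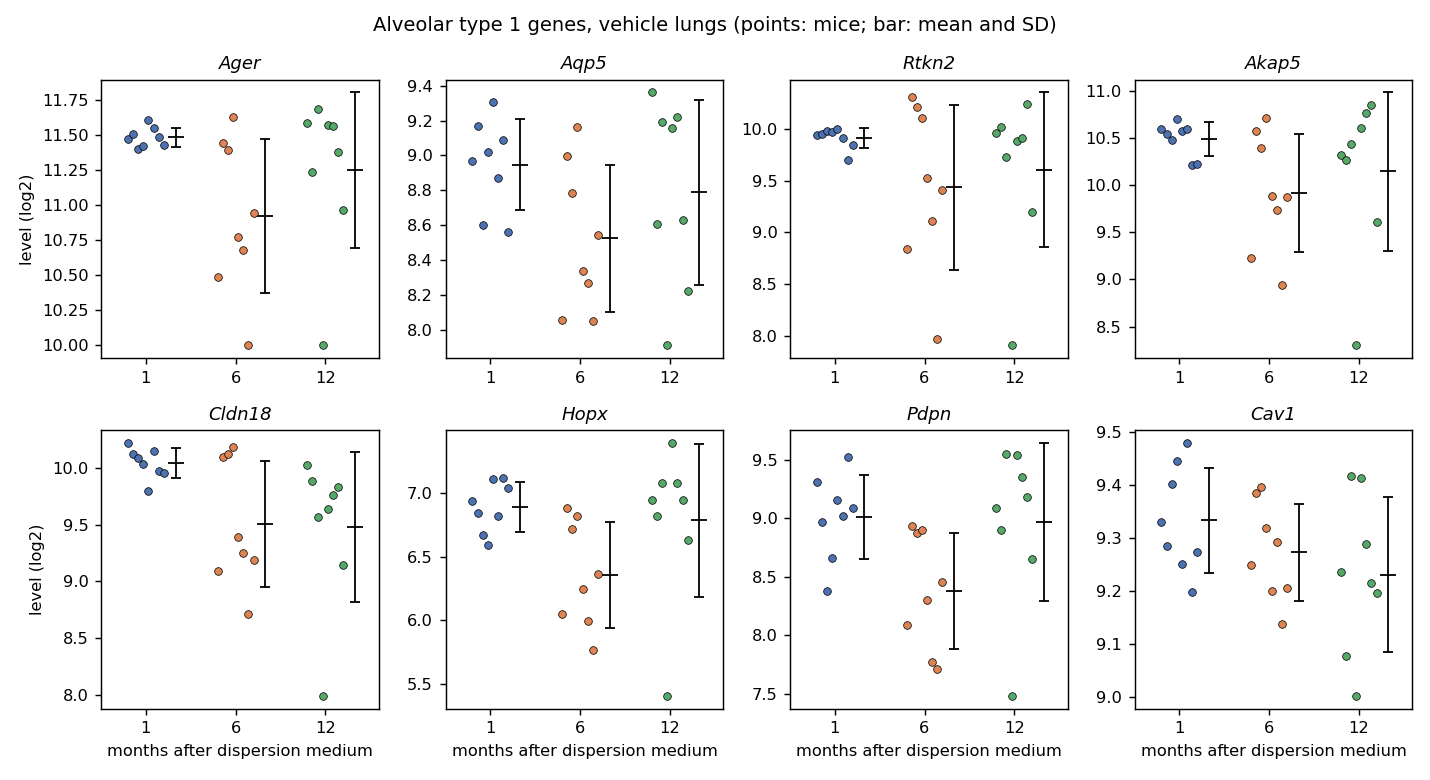
Levels (log2, vertical axis) of 8 genes of alveolar type 1 cells in each vehicle mouse at 1, 6 and 12 months (horizontal axis), with mean and SD, n = 8 mice a time. Ager had an SD of 0.07 at 1 month and 0.55 at 6 months, and a single 12-month mouse was lowest in all 8 genes.

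Other lists moved less or rested on few mice. The cell cycle list had 3 of 29 differences above 0 in the early step (median -0.21), with 0 past the test and 10 lower at an unadjusted p under 0.05, against 3.56% of all genes. Of these Ect2, an exchange factor needed for cytokinesis, was at 6.12 to 6.66 (median 6.45) and then at 5.70 to 6.49 (median 5.83), a difference of -0.50 ± 0.12 just outside the threshold (adjusted p = 0.0517). The alveolar macrophage list had 1 of 14 above 0 (median -0.30) and 0 past the test. Skeletal muscle had a median of -1.21 and squamous and basal epithelium of -0.58 with 0 of 14 and 0 of 15 above 0, beside the 3 muscle-rich mice and the keratin-rich mouse at 1 month described above. The club cell list had a median of 0.03 and T cells of 0.09.

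The early count moved with single mice. It was 4 without replicate 7 of either group, 6 without replicate 3 at 1 month or replicate 1 at 6 months, and 7 without replicate 8 at 6 months. It was 8, 9 and 13 without replicates 6, 5 and 8 at 1 month and 10 without replicate 3 at 6 months. In arrays without the word replacement 7 genes passed, of which 2 were higher and 5 lower, so the balance of the early step turned. Of the 30 only Slc6a20a, Veph1 and Lamp3 were among them, and none of the cilia genes named above; Cfap74 had a difference of 0.65 ± 0.15 there (adjusted p = 0.0682). With the word as a covariate 10 passed, 8 higher and 2 lower. Cfap74 and Cdhr3 were among these, while Dnah1, Dnah2, Dnah6, Cfap65, Wdr66, Tmem212 and Nek5 were not. Without the 4 mice high in Acta1 59 passed, 25 of the 30 among them. With the mean of the type 1 epithelium list as a covariate 8 passed, 7 of them from the 30. The sign of the 30 was the same in every setting in which they were tested, where the same mice had chosen them. Slc6a20a and Veph1 passed in all settings in which they were tested (30 and 29), Cfap74 and Cdhr3 in 29 of 30, while Dnah2, for example, passed in 14 of 30.

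Between 6 and 12 months 8 genes rose and 45 fell, 53 of 22180 (0.239%). Genes of the capillary endothelium stood among those that fell, led by the apelin receptor Aplnr and its ligand apelin. Egr1, a zinc finger factor of the immediate early response, and the microRNA genes Mir3075 and Mir194-1 fell as well. The genes that rose included Cd3d and Pcdhb1. The 8 were 0.0361% and the 45 were 0.203% of all genes, and 49.3% of all differences were above 0. At an unadjusted p under 0.05 there were 2780 genes or 12.5%, 5.4% higher and 7.13% lower. In 13 genes (0.0586%) all 12-month mice were above all 6-month mice and in 44 (0.198%) below. When all arrays were quantile normalized again 84 rose and 150 fell, so the share that rose was 35.9% against 15.1%. The balance turned in other settings: without arrays of low correlation, of which replicate 2 at 12 months is the one DM array, 179 rose and 87 fell, and with array weights 568 rose and 437 fell.

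Aplnr, the receptor of apelin on endothelial cells, lay at 7.44 to 8.29 (median 8.01) at 1 month, at 7.59 to 8.04 (median 7.75) at 6 months and at 6.65 to 7.28 (median 7.06) at 12 months. All 8 mice at 12 months were below every 6-month mouse, and Aplnr fell by 0.77 ± 0.16 (limma adjusted p = 0.0164), after an early difference of -0.16. Apln, the peptide ligand itself, lay at 6.74 to 7.53 (median 7.41), at 7.02 to 7.58 (median 7.21) and at 6.02 to 6.96 (median 6.49), and fell by 0.75 ± 0.18 (adjusted p = 0.0376), again without overlap. Ednrb, the B type receptor of endothelin, lay at 9.51 to 10.07 (median 9.67), at 9.71 to 10.10 (median 9.82) and at 8.75 to 9.50 (median 9.25), and fell by 0.63 ± 0.15 (adjusted p = 0.0376). Robo4, a guidance receptor of endothelium, fell by 0.51 ± 0.12 (adjusted p = 0.0376), with all 12-month mice below all 6-month mice. These were the 4 of 18 endothelium genes past the test, against 0.203% of all genes. The list was chosen with earlier results of these data known, so its share is a description only. Of the 18, 17 had a difference below 0 in this step (median -0.23) and 15 had one above 0 in the early step (median 0.14). Kdr, the main VEGF receptor, was at 10.56 to 10.92 (median 10.79) and then at 10.21 to 10.67 (median 10.39), a difference of -0.36 ± 0.10 (adjusted p = 0.086). Pecam1 differed by -0.21 ± 0.08 (adjusted p = 0.201).

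**Figure D3:**
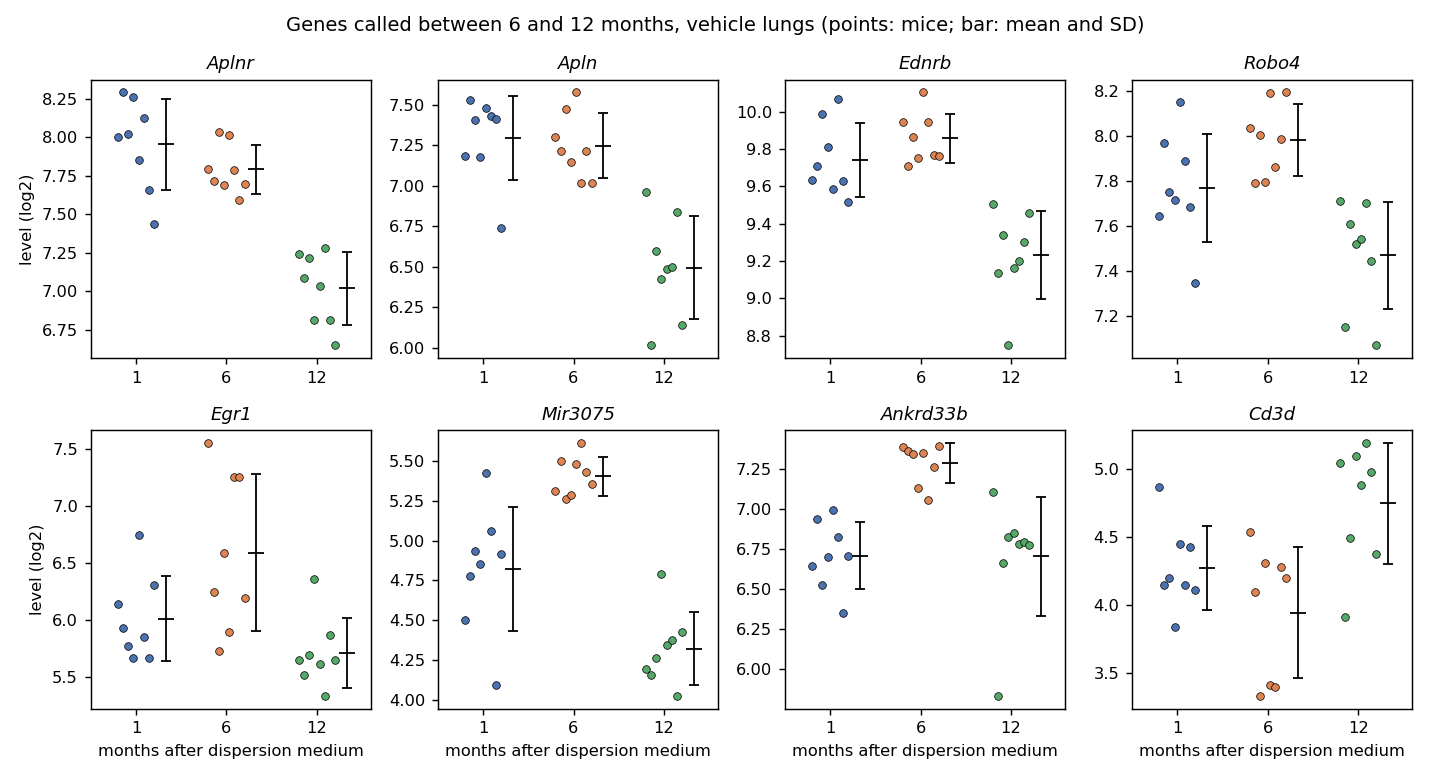
Levels (log2, vertical axis) of 8 genes in each vehicle mouse at 1, 6 and 12 months (horizontal axis), with mean and SD, n = 8 mice a time. Aplnr, Apln, Ednrb, Robo4 and Mir3075 at 12 months lay below every 6-month mouse, while Cd3d rose with overlap.

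Egr1 belongs to the immediate early genes, which are transcribed within minutes of a stimulus. It lay at 5.66 to 6.74 (median 5.89) at 1 month, at 5.73 to 7.55 (median 6.42) at 6 months and at 5.33 to 6.36 (median 5.65) at 12 months. It fell by 0.88 ± 0.21 in the late step (adjusted p = 0.0396), with 6 of 8 mice below every 6-month mouse, after an early difference of 0.58 ± 0.21 (adjusted p = 0.321). The high values at 6 months were those of replicates 1, 6 and 7 (7.55, 7.25 and 7.25, the other Egr1 values being 5.73 to 6.59), which were also among the 5 mice low in type 1 epithelium genes. With the mean of the type 1 list as a covariate the late difference was -0.83 ± 0.21 and did not pass (adjusted p = 0.0558). The call was also lost on leaving out any of 10 of the 16 mice in turn. The part of these mice in the result was not tested further. Fos, a subunit of the AP-1 factor, was at 5.67 to 6.74 (median 6.31), at 6.16 to 8.05 (median 6.51) and at 5.52 to 7.16 (median 5.94), with a late difference of -0.82 ± 0.23 (adjusted p = 0.0813). Dusp1, a phosphatase of MAP kinases, was at 8.57 to 9.0 (median 8.75), at 8.95 to 9.57 (median 9.12) and at 8.34 to 8.92 (median 8.64), so that 7 of its 8 mice at 6 months stood above the whole 1-month group and all 8 above the 12-month group. Its late difference was -0.55 ± 0.15 (adjusted p = 0.0831). Of the 22 measured genes 18 were above 0 early (median 0.23) and 20 below 0 late (median -0.25), and Egr1 was the single gene past the test in either step. In the contrast of the late minus the early difference 0 of the 22 passed in limma and 12 were lower at an unadjusted p under 0.05, against 10.6% of all genes in either direction.

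The arrays carry 483 microRNA genes, of which 2 fell (0.414%, against 0.203% of all genes) and 0 rose in the late step, a count too small to set microRNAs apart from other genes. Mir3075 lay at 4.10 to 5.42 (median 4.88) at 1 month, at 5.26 to 5.61 (median 5.39) at 6 months and at 4.02 to 4.79 (median 4.31) at 12 months. It fell by 1.08 ± 0.20 or 2.12-fold (adjusted p = 0.00391), with the 6-month and 12-month mice apart. Mir194-1 lay at 3.52 to 5.07 (median 4.39), at 4.36 to 5.28 (median 4.72) and at 3.48 to 4.53 (median 3.83), and fell by 0.80 ± 0.19 (adjusted p = 0.0396). Both were named after their values were seen. The features name the gene and not an arm of the hairpin. The mature sequences in RefSeq are printed because these were the microRNA genes that fell, with the seed (bases 2 to 8) in capitals. None of the 3 seeds is shared. They map on GRCm38.p6 to chr14:25534491-25534511 for miR-3075-3p and, for the arms of miR-194-1, to chr1:185313325-185313346 and chr1:185313360-185313381, all on the plus strand.
miR-3075-3p: aUCCUUGGccuuccuaggugu
miR-194-5p: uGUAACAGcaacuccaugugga
miR-194-1-3p: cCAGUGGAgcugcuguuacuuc
Mir3075 lies within Zmiz1, which had a late difference of -0.37 ± 0.12 (adjusted p = 0.129), and Mir194-1 within Iars2, which had one of 0.01 ± 0.11. Mir194-2, a second gene of the miR-194 family, differed by 0.02 ± 0.28.

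Further genes fell in the late step that were not members of the endothelium or immediate early lists, whatever cells express them. Dipk2b lay at 6.57 to 7.22 (median 6.77) at 6 months and at 5.85 to 6.45 (median 6.01) at 12 months, without overlap, and fell by 0.72 ± 0.14 (adjusted p = 0.00621). Cmklr1, the receptor of chemerin, fell by 0.62 ± 0.13 (adjusted p = 0.018), with 8 of 8 mice below every 6-month mouse, after an early difference of 0.45. Mest, an imprinted gene of growing tissue, lay at 5.56 to 6.72 (median 6.06), at 5.52 to 6.23 (median 5.83) and at 4.56 to 5.83 (median 5.20), and fell by 0.59 ± 0.15 (adjusted p = 0.0442). Slc36a2, a proton-coupled amino acid transporter of brown fat, fell by 0.70 ± 0.15 (adjusted p = 0.018), while the adipose list as a whole had a late median of 0.00 with 8 of 15 above 0. Kit, the receptor of stem cell factor, fell by 0.39 ± 0.09 (adjusted p = 0.0376) and was the single gene past the test of 12 mast cell genes, whose median was 0.11. Stat2, a factor of interferon signalling, fell by 0.46 ± 0.11 (adjusted p = 0.0323), with a median of -0.04 over its list of 16. Best3, a chloride channel of the bestrophin family, fell by 0.67, and Gask1a by 0.59.

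Matrix genes tended to have lower values without single genes passing. The late medians were -0.12 for fibrillar collagens, -0.12 for basement membrane, -0.21 for elastic fibres and -0.23 for other matrix genes. Over all genes the late median was -0.00, and 0 genes passed the test in each list. In the same order the early medians were -0.04, -0.14, -0.09 and -0.07, against 0.01 over all genes, again with 0 past the test in each. The lower values were thus not confined to the late step, and for basement membrane the early median was the lower one. Single mice weighed in these values. The fibrillar collagen mean per mouse had a median of 6.56 at 6 months and 6.55 at 12 months, with lowest mice at 6.42 and 6.03. For other matrix genes the medians were 7.33 and 7.16, with lowest mice at 7.27 and 6.75. For elastic fibres the medians were 7.44 and 7.32, and for basement membrane 7.46 and 7.37. Eln, elastin itself, lay at 7.97 to 8.96 (median 8.41) at 1 month, at 7.68 to 8.70 (median 8.38) at 6 months and at 7.23 to 8.0 (median 7.49) at 12 months. Its late difference was -0.75 ± 0.20 (adjusted p = 0.0612) and its early one -0.13. Col3a1, a fibrillar collagen, had the larger part early, with -0.60 ± 0.15 (adjusted p = 0.0517) against -0.24 ± 0.15 late. Over the whole span both fell, Eln by 0.87 and Col3a1 by 0.84. Fibroblast and pericyte genes had 13 of 16 below 0 late (median -0.26) and 0 past the test.

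Among the genes that rose late, Cd3d, a chain of the T cell receptor complex, lay at 3.84 to 4.87 (median 4.17), at 3.33 to 4.53 (median 4.15) and at 3.91 to 5.19 (median 4.93). It rose by 0.80 ± 0.19 (adjusted p = 0.0396). At 12 months 5 of the 8 stood higher than the whole 6-month group, and Cd3d was the single T cell gene of 16 past the test. Pcdhb1, of the clustered protocadherins, lay low, at 2.30 to 2.93 (median 2.65) at 6 months and at 2.87 to 4.05 (median 3.45) at 12 months, where the array medians were 4.01 to 4.34. It rose by 0.83 ± 0.21 (adjusted p = 0.0442) but was not tested among genes above the median level, while the 22 measured genes of its family had a median of -0.06; near-identical members of this family can share signal. Eny2, a subunit of the SAGA and TREX-2 complexes, lay at 7.27 to 7.55 (median 7.46) at 6 months and at 7.61 to 8.29 (median 8.02) at 12 months, apart from each other, and rose by 0.53 ± 0.12 (adjusted p = 0.0323). Pfdn1, a prefoldin subunit, rose by 0.65, the chaperone cofactor Bag1 by 0.57, Ccdc43 by 0.49 and the splicing factor Syf2 by 0.41. Ribosomal protein genes had 16 of 17 differences above 0 in this step (median 0.24) with 0 past the test. Rpl13 of this list had 0.37 ± 0.10 (adjusted p = 0.0813). The oxidative phosphorylation list had 16 of 19 above 0 (median 0.10), again with 0 past the test.

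The late count moved with single mice too. It was 6, 8 and 17 without replicates 3, 5 and 7 at 12 months, and 30 and 33 without replicates 8 and 6. Without replicate 4 at 12 months 0.537% of genes passed, against 0.239%. Without replicate 2 at 12 months the count was 24, of which 14 were higher and 10 lower, so leaving out this mouse alone turned the balance. Of the 53, 17 were among these, while Apln, Ednrb, Robo4 and Egr1 were not. The late count was 13, 17, 21 and 24 without replicates 7, 5, 1 and 3 at 6 months and 27 without replicate 2 or 8. With the order of deposition as a spline 11 passed, all from the 53. When only DM arrays were fitted, so that no spread was shared with the fibre groups, 38 passed, 7 higher and 31 lower. Of the 53, 22 were among them. Without the 4 mice high in Acta1 25 passed, 14 of them higher, with 18 of the 53 among them. In arrays without the word replacement 77 passed, 35 higher and 42 lower, with 30 of the 53 among them. The sign of all 53 was the same in each setting where they were tested, and here too the same mice had chosen them. Aplnr and Dipk2b passed in 30 of 30 settings, Slc36a2 in 27, Apln in 18, Ednrb in 16, Egr1 in 15 and Bag1 and Mest in 13. Cd3d passed in 17 of 29 and Pcdhb1 in 11 of 29. Robo4 lost its call with only DM arrays, with the spline and without the 4 mice high in Acta1. It also lost it on leaving out single mice, for example replicate 7 at 6 months or replicate 3 at 12 months.

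The steps were then set against each other with the contrast of the late minus the early difference, which tests whether these were unequal. A gene that changed in 1 step only can pass it, as can a gene that turned at 6 months. The early step spanned 5 months and the late one 6, and the contrast was not scaled for this. Both steps hold the same 6-month mice with opposite sign. It called 3 genes of 22180 (0.0135%), all with a lower late than early difference, and 2343 genes (10.6%) lay under an unadjusted p of 0.05. Ankrd33b, an ankyrin repeat protein, lay at 6.35 to 6.99 (median 6.70) at 1 month, at 7.06 to 7.39 (median 7.34) at 6 months and at 5.83 to 7.10 (median 6.79) at 12 months. It rose by 0.58 ± 0.13 (adjusted p = 0.0248) and then fell by 0.58 ± 0.13 (adjusted p = 0.018), so the steps differed by -1.16 ± 0.22 (adjusted p = 0.0109). Mir3075 differed by -1.67 ± 0.34 between the steps (adjusted p = 0.024). Rhox1, a homeobox gene of the reproductive cluster, lay low, at 2.51 to 3.26 (median 2.66), at 2.77 to 3.83 (median 3.07) and at 2.25 to 2.96 (median 2.49), and differed by -0.95 ± 0.20 (adjusted p = 0.024). The count was 0 without replicate 2 at 12 months or replicate 8 at 6 months, 1 without replicate 5, 6 or 7 at 6 months, and 0 without the 4 mice high in Acta1. For Slc6a20a, Cdhr3, Cfap74 and Dnah2 the steps differed by -0.96, -0.76, -1.0 and -0.90, which did not pass the test (adjusted p from 0.124 to 0.184), nor did Aplnr with -0.61 ± 0.28 (adjusted p = 0.412). The data thus do not show for these genes that the late step differed from the early one.

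**Figure D4:**
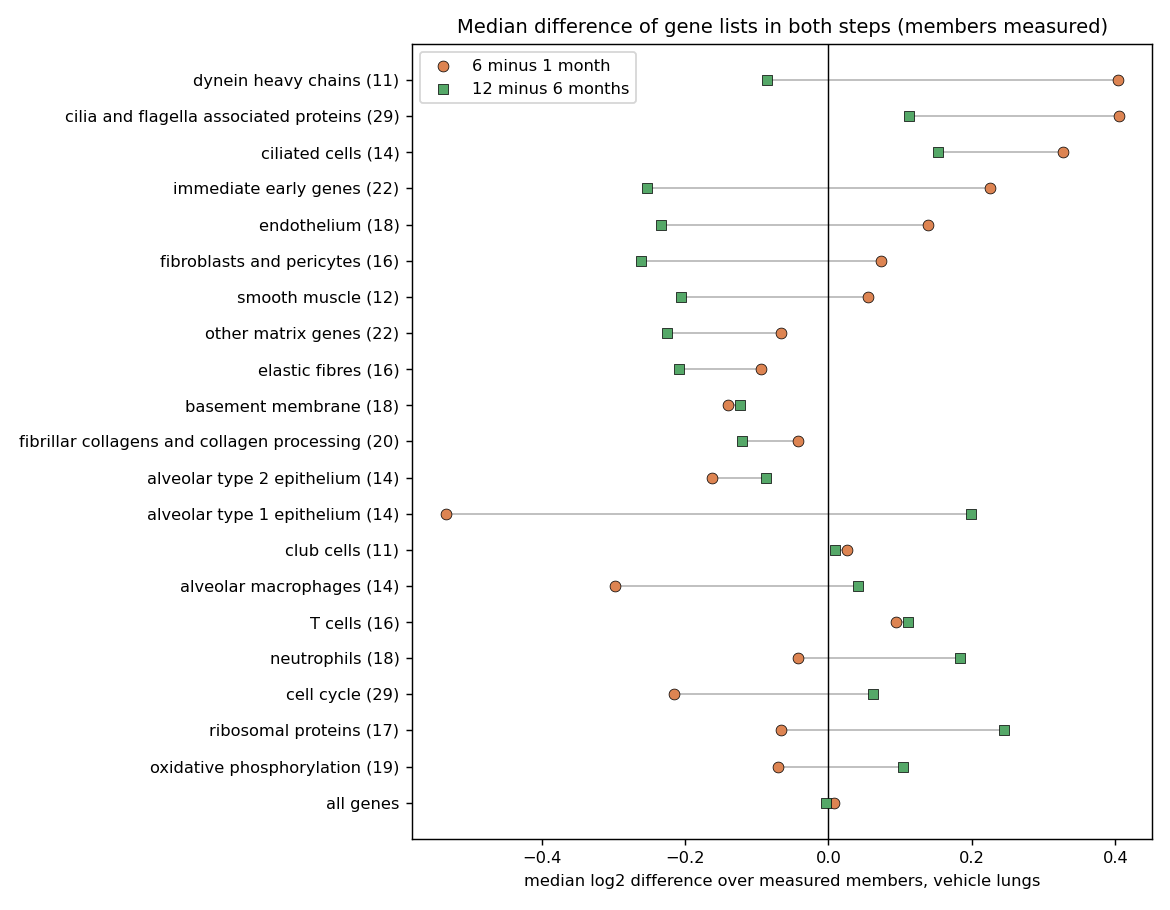
Median log2 difference (horizontal axis) of gene lists and families (vertical axis, with the number of measured members) between 1 and 6 months (circles) and between 6 and 12 months (squares) in vehicle lungs, with all genes at the bottom. Ciliated cell genes had medians of 0.33 and 0.15, endothelium 0.14 and -0.23, and type 1 epithelium -0.53 and 0.20; both steps use the same 6-month mice.

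Over the whole span, from 1 to 12 months, 151 genes rose (0.681%) and 97 fell (0.437%), 1.12% in all. With arrays centred on their medians the share that rose was 49.4% in place of 60.9%. Of the genes named for the early step Veph1 (-1.02 ± 0.14, adjusted p = 2.56e-07), Cpeb1 (0.77), Slc6a20a (0.78) and Cdhr3 (0.57) passed over the whole span, while Cfap74 (0.45), Dnah2 (0.39) and Nr4a3 (0.50) did not. Of those named for the late step Aplnr (-0.94 ± 0.16, adjusted p = 0.000156), Apln (-0.80), Mest (-0.82) and Pcdhb1 (1.01) passed, while Egr1 (-0.30), Ednrb (-0.51) and Cd3d (0.47) did not. The share of genes past the test over the whole span was 0.618% without replicate 3 at 1 month or without replicate 7 at 12 months. The count of 248 was 162 without replicate 4 at 1 month, 392 without replicate 2 at 12 months and 955 without the 4 mice high in Acta1. In arrays without the word replacement it was 63 and in arrays with it 1.

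Mice given 1 or 10 µg of MWCNT passed through the same times and share no animal with the vehicle groups. Of the 30 genes of the early step, 30 had the same sign at 1 µg and 29 at 10 µg; over all genes 43.5% and 54.1% were above 0. Of the 26 that rose, 17 were higher at an unadjusted p under 0.05 at each dose, with medians of 0.33 and 0.34 against 0.62 in vehicle mice, where the same values had chosen them; over all genes 2.55% and 3.48% were higher at that p. The 4 that fell were lower at that p at both doses, against 5.88% and 2.72% of all genes. The ciliated cells list had an early median of 0.12 at 1 µg (10 of 14 above 0) and of 0.26 at 10 µg (14 of 14), and a late median of 0.35 (14 of 14) and of 0.26 (13 of 14). In vehicle mice the early median was 0.33 and the late one 0.15, so at 1 µg the late median was the larger one. Veph1 fell at both doses, by 0.99 ± 0.14 at 1 µg (limma adjusted p = 8.78e-07) and by 0.82 ± 0.14 at 10 µg (adjusted p = 0.000464), and Slc6a20a rose by 0.90 ± 0.16 at 1 µg (adjusted p = 0.00149). In these mice 8 genes (0.0361%) passed between 1 and 6 months at 1 µg, 1 higher and 7 lower. At 10 µg 13 (0.0586%) passed, 3 higher and 10 lower. The balance was the reverse of that in vehicle mice, where 26 were higher and 4 lower, but it rested on few genes and moved with scaling. After quantile normalization the early split at 1 µg was 16 higher and 11 lower, and after centring on medians 5 and 15. At 10 µg it was 9 higher and 15 lower, and 5 and 14. Of the 53 genes of the late step, 48 had the same sign at 1 µg and 40 at 10 µg; over all genes 55.3% and 57.3% were above 0. Of the 8 that rose, 6 were higher at an unadjusted p under 0.05 at 1 µg and 1 at 10 µg, against 12.3% and 6.23% of all genes. Of the 45 that fell, 26 were lower at an unadjusted p under 0.05 at 1 µg and 4 at 10 µg, against 5% and 3.29%. Pcdhb1 rose by 1.04 ± 0.22 at 1 µg (adjusted p = 0.0144), and Aplnr had -0.58 ± 0.17 and -0.39 ± 0.16, which did not pass (adjusted p = 0.0658 and 0.442). The endothelium list as a whole had a late median of 0.00 at 1 µg, with 9 of 18 above 0, and of -0.03 at 10 µg, with 6 of 18 above 0, against -0.23 in vehicle mice. Egr1 had 0.00 ± 0.23 at 1 µg and -0.17 ± 0.21 at 10 µg, and Ankrd33b had 0.10 ± 0.14 and -0.10 ± 0.13. Between 6 and 12 months 280 genes (1.26%) passed at 1 µg, 240 of them higher, and 3 (0.0135%) at 10 µg. Without 8 arrays of low correlation, 1 of them of DM, the 280 became 5. Limma called 0 genes in each of the 4 tests of whether a step differed between MWCNT and vehicle mice, with 879, 1114, 604 and 1742 genes (3.96%, 5.02%, 2.72% and 7.85%) at an unadjusted p under 0.05 for the early and late step at 1 µg and the early and late step at 10 µg, and array weights called 1 gene in the last of them. A p that misses the threshold does not show that the steps were alike.

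**Figure D5:**
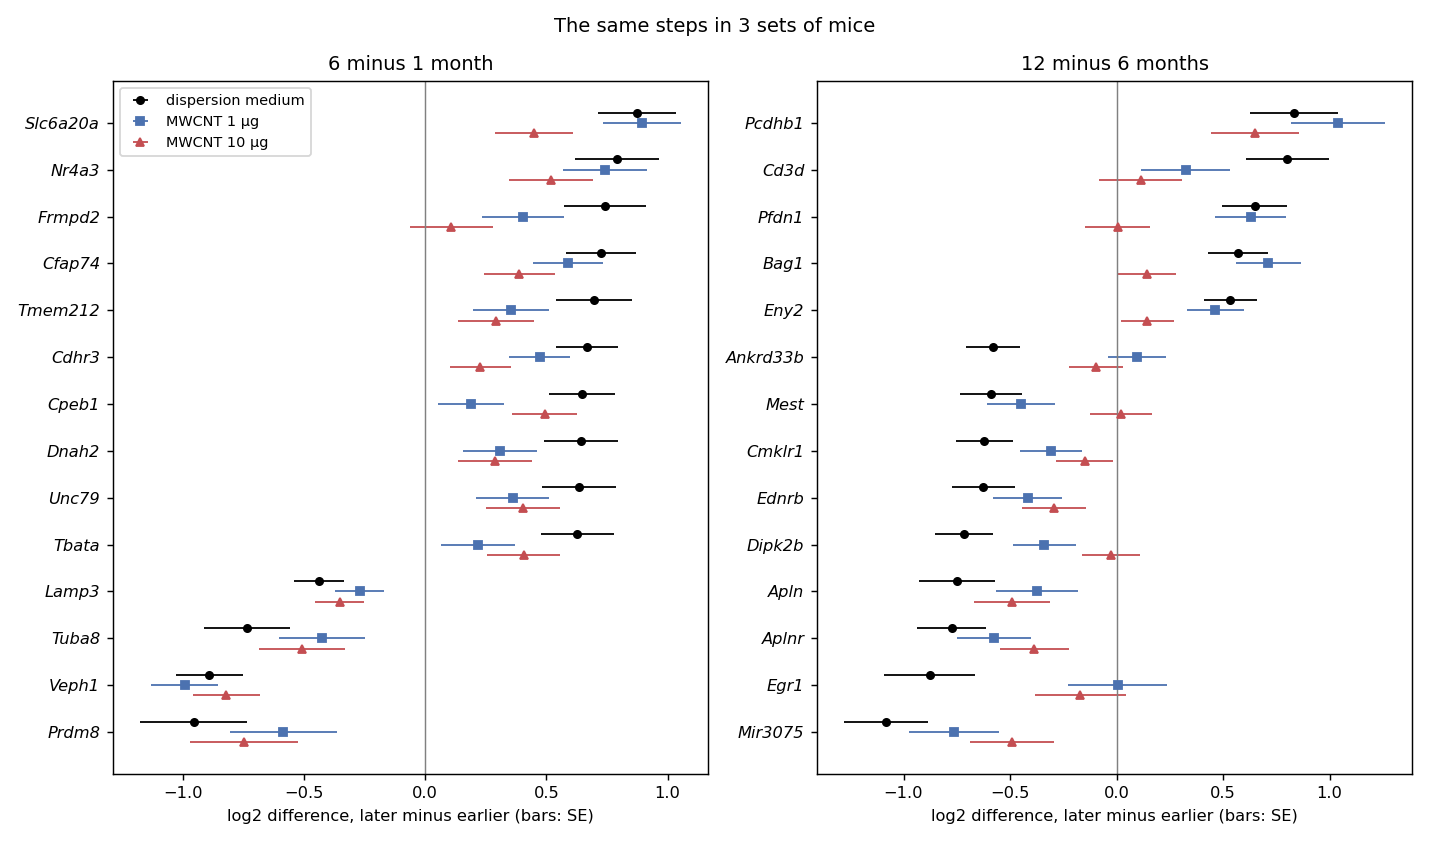
Log2 difference, later minus earlier time, with its SE (horizontal axis) for genes named in the early step (left) and the late step (right) in vehicle mice and in mice given 1 or 10 µg of MWCNT (6 to 8 mice a group). Veph1 lay at -0.89, -0.99 and -0.82 in vehicle, 1 µg and 10 µg mice, and Egr1 at -0.88, 0.00 and -0.17.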

How the data were processed

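The authors deposited log2 values for each array feature; per the submitters' processing notes the tools were RMA, oligo and limma, with neither version nor role, and no genome build is named. Values ran from -0.05 to 13.28. Of 41345 features, 23521 had 1 gene symbol, 1814 several and 16010 none; the feature with the highest mean was kept for each of 22180 genes, of which 21994 matched RefSeq (GRCm38.p6).

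The 2 arrays of 1 mouse of another group were averaged, leaving 1 value per mouse in 18 groups. Limma 3.58.1 (R 4.3.3) fitted a mean per group over all mice (120 residual degrees of freedom), two-sided, with Benjamini-Hochberg adjustment over all genes. SE is that of the contrast. The labels number separate mice; numbers of replicates were given in accession order and pair nothing. The number of arrays limits the precision. P-values set a difference between group means against the spread between mice, pooled over the 18 groups, those given fibres included. The fit was tested on simulated data. Figures used matplotlib 3.10.9.

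Genes named by rule were the 10 highest and 10 lowest in each step, the 5 highest and 5 lowest between steps, the 2 largest in each list among those past the test, and defining markers of tissues; predicted genes, olfactory receptors and microRNAs were passed over. The comparisons, gene lists and rule were chosen with earlier results of these data known. The share of a list past the test is therefore a description and not a separate test. Alternatives covered scaling, moderation, array weights, filters, the word replacement, deposition order, single mice and, chosen after seeing the data, mice high in Acta1 and type 1 epithelium as a covariate.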

Additional observations from a re-analysis of the deposited data

Results flagged for a closer look

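In groups of 8 mice, 13 single values stood apart from the rest of their group by Dixon's test. That is 9.42% of the groups tested, where chance gives about 5% or 1 in 20. Tissue markers were among the genes tested, and some mice were flagged in more than 1 gene. The groups are thus not independent of each other, and the 5% is no strict benchmark for them. At 1 month, replicate 8 was low in Apln (6.74, others 7.18 to 7.53), and replicate 2 was high in Krt4 (12.11) and Krt13 (10.72). At 6 months, Cfap74 was low in replicate 4 (6.13, others 6.49 to 6.77), Cpeb1 in replicate 6 (5.26) and Ccdc43 in replicate 7 (5.18), Dipk2b was high in replicate 5 (7.22), and Ucp1, the uncoupling protein of brown fat, in replicate 3 (7.19, others 2.88 to 3.59). At 12 months, replicate 2 was low in Ankrd33b (5.83) and high in Acta1 (7.92), and replicate 4 was high in Adipoq (6.35) and Ucp1 (5.44), both genes of fat, and low in Ager (9.99, others 10.97 to 11.69).

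The late step differed from the early step, by the contrast between them in limma, for Ankrd33b (-1.16, adjusted p = 0.0109), Mir3075 (-1.67, adjusted p = 0.024) and Rhox1 (-0.95, adjusted p = 0.024).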

How the results depend on the processing

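The share of genes past the test moved widely between settings. Of 1151 values of named genes under alternatives, 773 passed the test, 378 did not and 0 reversed. Most of these genes were chosen by their values in the same mice, so the unchanged signs are no separate support. The percentages of genes tested are given for the early step, the late step, their difference and the whole span (0.135%, 0.239%, 0.0135% and 1.12% as reported). Quantile normalization again gave 0.243%, 1.06%, 0.0631% and 1.83%, centring on medians 0.275%, 0.424%, 0.0225% and 1.89%, and array weights 0.613%, 4.53%, 1.34% and 2.48%. Genes above the median level gave 0.505%, 1.49%, 0.0902% and 2.57%, over fewer genes tested. Only DM arrays gave 0.316% early, 0.171% late and 0.0766% for the difference, for which the mean of all features gave 0.0225%. The word replacement as a covariate gave 0.0451%, 0.667% and 0.0271%. Arrays without it gave 0.0316% early, 0.0766% for the difference and 0.284% for the span. Arrays with it gave 0.00451% for the span, and the other comparisons could not be run because 1 array at 6 months has the word. A spline on deposition order gave 0.0496% late and 1.83% for the span, leaving out arrays of low correlation 0.374% early, 1.2% late and 3.15% for the span, and a fold of at least 1.5 gave 0.0721% late and 0.613% for the span. Without the 4 mice high in Acta1 the values were 0.266%, 0.113%, 0% and 4.31%, and with type 1 epithelium as a covariate 0.0361% early and 0.00451% for the difference. Leaving out each vehicle mouse in turn gave 0.018% to 0.18% early, 0.0271% to 0.537% late, 0% to 0.018% for the difference and 0.618% to 1.77% for the span. The cause of these shifts was not tested.

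At 1 µg the early share of 0.0361% was 0.122% after quantile normalization, 0.0902% after centring, 0.455% with array weights, 0.0586% with the spline and 0.0225% without arrays of low correlation. The late share of 1.26% was 4.62% with array weights, 5.26% among genes above the median level, 4.12% with the word as a covariate, 5.26% in arrays without it, 0.0225% without arrays of low correlation and 0.514% at 1.5-fold. Of the genes called there 85.7% rose, and 53% or 68.6% after quantile normalization or centring. At 10 µg the early share of 0.0586% was 0.108% after quantile normalization, 0.113% with array weights, 0.0721% above the median level, 0.0225% in arrays without the word and 0.162% with the spline. The late share of 0.0135% was 0.00451% after quantile normalization or at 1.5-fold, 0.0451% above the median level and 0.0541% with the spline. The test of the late step at 10 µg against vehicle, 0 genes as reported, gave 0.00451% with array weights and 0% to 0.00451% over single mice left out, the higher value without replicate 6 at 6 months. The other 3 such tests gave 0 in each setting.

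No paired analysis was possible because replicates were numbered in accession order and are separate mice. The number of arrays limits precision.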
